A study of Homo sapiens with 7 samples.

Results

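The genes described here are 10 whose products act at the cell surface and the submembrane cytoskeleton: S100A4, S100A6, S100A10, S100A11, ANXA1, ANXA2, LGALS1, TIMP1, CD44 and CAV1. They were chosen by name from the 28517 entries of the deposited tables, because several of them lie far apart between 2 ARID1A-null lines, so the distance between those lines is given as a description with no test. The libraries came from ARID1A-/- line 1 (2 libraries), ARID1A-/- line 2 (2), an ARID1A+/- line (1) and control cells (2). All derive from NGP, an established MYCN-amplified human neuroblastoma line, and all were grown in RPMI medium with fetal bovine serum and puromycin. ARID1A belongs to the BAF (SWI/SNF) complex, which remodels chromatin, and contacts DNA. The study's title asks whether loss of ARID1A shifts such cells from the adrenergic towards the mesenchymal state. Each replicated group had 1 library made with the SMARTer kit and 1 made with the KAPA kit, which also served for the ARID1A+/- library. The labels give neither the position of the mutations, nor whether a line is 1 clone, nor whether a line's libraries stem from separate cultures. The p-values therefore reflect only how far these libraries differ from each other, which may be technical.

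Total counts ranged from 24445301 to 43644361 per library. ARID1A itself stood at 16.7 and 17.2 RPKM in line 1, 14.2 and 13.8 RPKM in line 2, 19.9 RPKM in ARID1A+/- cells, and 22.3 and 22.0 RPKM in control cells. RPKM is the read count scaled by transcript length and by the library's total, and where values are given in pairs below the SMARTer library comes first and the KAPA library second. Sympathetic markers were present throughout: HAND2 ranged from 276 to 349 RPKM, GATA3 from 70.8 to 154 RPKM and PHOX2A from 131 to 437 RPKM over the 7 libraries. TH, which encodes the enzyme of the first step of catecholamine synthesis, did not exceed 0.46 RPKM in any library.

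S100 proteins are small calcium-binding proteins that expose a binding surface when calcium rises and then grip partners such as annexins and non-muscle myosin. Annexins bind phospholipid membranes in a calcium-dependent way, and annexin A2 pairs with S100A10 at the plasma membrane, where the complex binds plasminogen. Galectin-1 (LGALS1) cross-links glycans, TIMP1 inhibits matrix metalloproteinases, CD44 is the main receptor for hyaluronan and caveolin-1 (CAV1) coats caveolae. Many of these genes are known as markers of mesenchymal-type neuroblastoma cells and are usually low in adrenergic ones.

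Promoters of 4 of the genes are shown because their levels took different courses. S100A4 was the member with the highest median level, S100A11 and TIMP1 lay above control in line 1 and below it in line 2, and CAV1 was low in both null lines. Each stretch holds 300 bases, 250 before and 50 after the gene start annotated by RefSeq on build GRCh38.p14, written 5′ to 3′ on the gene's strand. They are chr1:153545757-153546056 for S100A4 and chr1:152036955-152037254 for S100A11, both on the minus strand, and chrX:47582186-47582485 for TIMP1 and chr7:116524759-116525058 for CAV1, both on the plus strand. Capitals mark matches to GGGCGG (the GC box) and to TATAAA (the TATA box) on either strand.
S100A4: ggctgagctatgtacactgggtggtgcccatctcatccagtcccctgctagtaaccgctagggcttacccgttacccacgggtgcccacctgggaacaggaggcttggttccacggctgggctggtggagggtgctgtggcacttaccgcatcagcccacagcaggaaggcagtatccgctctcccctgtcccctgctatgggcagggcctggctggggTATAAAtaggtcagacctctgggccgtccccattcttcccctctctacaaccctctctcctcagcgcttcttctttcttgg
S100A11: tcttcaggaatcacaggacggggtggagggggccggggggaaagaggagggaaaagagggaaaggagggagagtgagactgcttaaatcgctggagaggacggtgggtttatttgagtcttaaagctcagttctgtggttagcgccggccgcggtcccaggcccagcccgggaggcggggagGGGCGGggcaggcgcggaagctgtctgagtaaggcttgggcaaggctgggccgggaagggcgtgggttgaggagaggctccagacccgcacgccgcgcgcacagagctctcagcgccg
TIMP1: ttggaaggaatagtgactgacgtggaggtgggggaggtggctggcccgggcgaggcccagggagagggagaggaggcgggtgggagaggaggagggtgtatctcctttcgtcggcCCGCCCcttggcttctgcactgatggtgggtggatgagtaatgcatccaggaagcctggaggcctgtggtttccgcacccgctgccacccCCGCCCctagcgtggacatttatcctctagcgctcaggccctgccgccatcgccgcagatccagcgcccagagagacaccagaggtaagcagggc
CAV1: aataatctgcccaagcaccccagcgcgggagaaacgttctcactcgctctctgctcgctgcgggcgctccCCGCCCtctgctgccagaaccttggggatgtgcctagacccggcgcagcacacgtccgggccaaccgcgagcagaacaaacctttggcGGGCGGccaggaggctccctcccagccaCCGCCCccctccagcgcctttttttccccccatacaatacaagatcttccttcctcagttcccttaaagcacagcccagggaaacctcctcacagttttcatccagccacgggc
The S100A4 stretch had TATAAA at position -31, counted with the annotated start as 0, and no match to GGGCGG. The other 3 had no TATAAA, with 1 match to GGGCGG or its reverse CCGCCC in S100A11, 2 in TIMP1 and 3 in CAV1. Of 27305 RefSeq promoters of the same length, 44.6% held the GC box and 11.95% the TATA box. CpG dinucleotides numbered 8 in S100A4, 22 in S100A11, 16 in TIMP1 and 19 in CAV1, against a median of 14 over all promoters. RefSeq promoters were matched for 9 of the 10 genes (LGALS1 had none in the table used), and a match of letters is a description, not a site.

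The 10 genes fell into 3 kinds by level. S100A4 and LGALS1 were abundant in some or all libraries, S100A11, TIMP1, ANXA2 and CAV1 were at low to moderate levels, and S100A6, S100A10, ANXA1 and CD44 were at or near 0 everywhere. Genes with a mean of at least 0.5 RPKM over the 6 control and null libraries were tested, and 5 of the 10 passed: S100A4, S100A11, ANXA2, LGALS1 and TIMP1. The plot of levels in every library shows all 10.

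**Figure D1:**
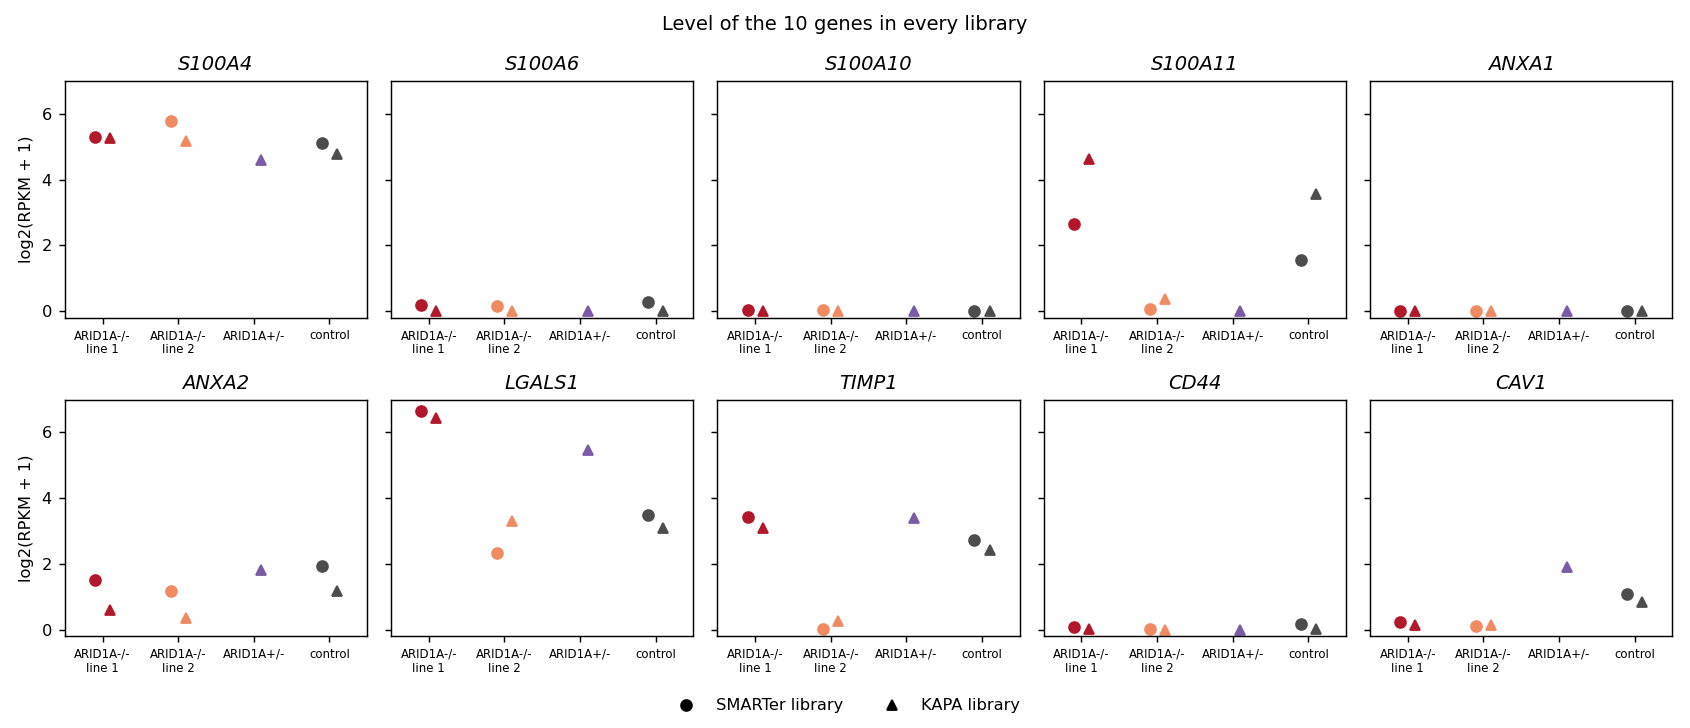
Level of each of the 10 genes, as log2(RPKM + 1) on the vertical axis, in ARID1A-/- line 1, ARID1A-/- line 2, ARID1A+/- and control cells; each point is 1 library, circles SMARTer and triangles KAPA. LGALS1 reached 99.3 RPKM in line 1, S100A11 and TIMP1 were under 0.3 RPKM in line 2, and S100A6, S100A10, ANXA1 and CD44 lay along the bottom in all 7 libraries.

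LGALS1, the secreted and cytoplasmic galectin-1, was the gene with the highest single value. It stood at 99.3 and 86.0 RPKM in line 1, 4.05 and 8.87 RPKM in line 2, 42.9 RPKM in ARID1A+/- cells, and 10.1 and 7.48 RPKM in control cells. Line 1 and the ARID1A+/- library were far above every control and line 2 library, while line 2 lay under control in the SMARTer libraries and over it in the KAPA libraries. Line 1 held 3823 reads of LGALS1 over its libraries and line 2 held 235, a ratio of 15.9 for equal depth (95% exact binomial interval 13.97 to 18.3, counting error only). The fitted log2 fold change was 3.39 ± 0.38 (SE) for line 1 against control and -0.53 ± 0.38 for line 2 against control.

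TIMP1 stood at 9.65 and 7.50 RPKM in line 1, 0.012 and 0.187 RPKM in line 2, 9.58 RPKM in ARID1A+/- cells, and 5.57 and 4.36 RPKM in control cells. It was close to lost in line 2: over both libraries of each group, 1301 reads were counted in line 1, 12 in line 2 and 712 in control cells. At equal depth the ratio of line 1 to line 2 was 106 (95% exact binomial interval 60.6 to 206), and that of control to line 2 was 62.8 (35.7 to 122). Against control the fitted log2 fold change was 0.79 ± 0.44 (SE) for line 1 and -5.83 ± 0.66 for line 2. TIMP1 lies within SYN1, a gene of synaptic vesicles, in the RefSeq annotation, and whether reads were counted by strand is not given in the sources used here. SYN1 stood at 9.79 and 5.02 RPKM in line 1, 14.6 and 8.42 RPKM in line 2, 3.42 RPKM in ARID1A+/- cells, and 8.80 and 5.54 RPKM in control cells, so it was not low in line 2, where TIMP1 was.

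S100A11 was also higher in line 1 and lower in line 2 than in control cells. Unlike TIMP1 it was undetected in ARID1A+/- cells, and its level differed between the SMARTer and KAPA libraries. It stood at 5.25 and 23.8 RPKM in line 1, 0.041 and 0.291 RPKM in line 2, 0 in ARID1A+/- cells, and 1.93 and 10.8 RPKM in control cells. Within each kit, line 1 was above control and line 2 far below it. Line 1 had 579 reads over its libraries and line 2 had 6, a ratio of 94.5 at equal depth (95% exact binomial interval 43.2 to 259). The fitted log2 fold change against control was 1.28 ± 0.25 (SE) for line 1 and -5.21 ± 0.40 for line 2. No read was counted in the ARID1A+/- library, where a count of 0 allows up to 0.153 RPKM (3 reads).

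S100A4, which binds the heavy chain of non-muscle myosin IIA, was the least variable of the 5 tested genes. It stood at 38.2 and 37.7 RPKM in line 1, 54.4 and 35.3 RPKM in line 2, 23.0 RPKM in ARID1A+/- cells, and 33.9 and 26.5 RPKM in control cells. Within each kit both null lines were above control, and the null libraries did not overlap the control libraries, while the ARID1A+/- library was the lowest of all. The fitted log2 fold change against control was 0.35 ± 0.17 (SE) for line 1 and 0.52 ± 0.17 for line 2.

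ANXA2 and CAV1 were lower in both null lines than in control cells within each kit. ANXA2 stood at 1.86 and 0.518 RPKM in line 1, 1.26 and 0.271 RPKM in line 2, 2.48 RPKM in ARID1A+/- cells, and 2.87 and 1.28 RPKM in control cells. Across kits the groups overlapped, with the SMARTer library of line 1 above the KAPA control library. Its fitted log2 fold change against control was -0.93 ± 0.31 (SE) for line 1 and -1.67 ± 0.33 for line 2. ANXA2 has processed pseudogenes, and reads shared with them could have been split by the counting. Entries for ANXA2P1, ANXA2P2 and ANXA2P3 did not exceed 0.393 RPKM (ANXA2P2 in ARID1A+/- cells), and such sharing was not tested.

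CAV1 stood at 0.182 and 0.105 RPKM in line 1, 0.071 and 0.10 RPKM in line 2, 2.72 RPKM in ARID1A+/- cells, and 1.11 and 0.809 RPKM in control cells. No null library reached the level of any control library, and the ARID1A+/- library was above all others. The null libraries together held 75 reads and the control libraries 307, so that control exceeded the null lines 8.76-fold at equal depth (95% exact binomial interval 6.79 to 11.4). CAV1 was under the level needed for the test, so its fitted values come from the same fit without that filter. They were -2.69 ± 0.39 (log2, SE) for line 1 against control and -3.50 ± 0.42 for line 2 against control.

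**Figure D2:**
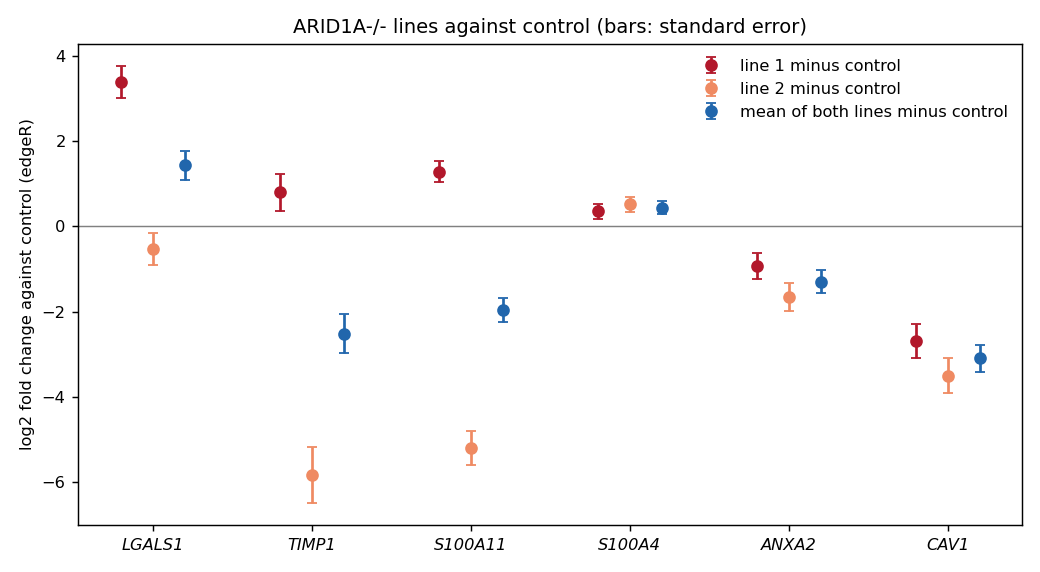
Fitted log2 fold change against control (vertical axis) of 6 genes for ARID1A-/- line 1, ARID1A-/- line 2 and the mean of both lines, from edgeR; points are estimates and bars are standard errors. LGALS1, TIMP1 and S100A11 have line 1 above 0 and line 2 below it, ANXA2 and CAV1 have both below 0, and S100A4 both above it.

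The other 4 genes were close to absent. S100A6, a partner of the calcyclin-binding protein CACYBP, had 13 reads over all 7 libraries, 4 in line 1, 3 in line 2, 0 in ARID1A+/- cells and 6 in control cells, all from SMARTer libraries. S100A10, the plasminogen-binding partner of annexin A2, had 2 reads in all, and ANXA1, an annexin known for dampening inflammation, had 2 as well. CD44 had 15 and 5 reads in line 1, 4 and 0 in line 2, 0 in ARID1A+/- cells, and 38 and 1 in control cells, which is at most 0.130 RPKM. A count of 0 in the ARID1A+/- library allows up to 0.133 RPKM of S100A6, 0.0861 RPKM of S100A10, 0.0328 RPKM of ANXA1 and 0.0136 RPKM of CD44. In the SMARTer libraries the control held 2.37 times the CD44 reads of line 1 at equal depth (95% exact binomial interval 1.27 to 4.63) and 9.31 times those of line 2 (3.35 to 35.9), counting error only. In the KAPA libraries line 1 had 5 CD44 reads and control had 1, so the order of these groups was not the same in both kits. S100A6, S100A10 and ANXA1 had too few reads for a ratio.

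The mean of both null lines against control was tested with edgeR's quasi-likelihood test, with a term for the kit. It is not the distance between the lines for which the genes were chosen, but it uses the same null libraries. Earlier results of these data were also known, so its p-values are not independent of the choice of the genes. LGALS1 rose, S100A11, TIMP1 and ANXA2 fell, and S100A4 did not pass the threshold of 0.05 on the Benjamini-Hochberg adjusted p. Over all 14711 tested genes 14.2% passed, 4.64% as higher and 9.57% as lower. LGALS1 changed by 1.43 ± 0.33 on the log2 scale (adjusted p = 0.0359, edgeR), which rests on line 1. ANXA2 changed by -1.30 ± 0.27 (adjusted p = 0.0236, edgeR) and was lower in 2 of 2 lines. S100A4 changed by 0.44 ± 0.15 (adjusted p = 0.111, edgeR).

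For S100A11 and TIMP1 the mean of the lines has to be read with the values of each line. S100A11 changed by -1.96 ± 0.27 (adjusted p = 0.00585, edgeR) and TIMP1 by -2.52 ± 0.45 (adjusted p = 0.0146, edgeR) on the log2 scale, yet both were higher in line 1 than in control within each kit. A mean of logarithms is drawn down by the near-zero level in line 2, so these calls describe line 2 and not line 1. CAV1, without the filter, changed by -3.10 ± 0.32 (adjusted p = 0.000128, edgeR), where 13.9% of 22631 genes passed, 4.55% as higher and 9.35% as lower. It was lower in 2 of 2 lines and 4 of 4 libraries.

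The calls of the 4 filtered genes rested on having both control libraries. Without the SMARTer control library the adjusted p was 0.0555 for S100A11, 0.0841 for ANXA2, 0.136 for LGALS1 and 0.209 for TIMP1 (edgeR). Without the KAPA control library it was 0.0914 for S100A11, 0.202 for ANXA2, 0.267 for LGALS1 and 0.0856 for TIMP1, and without the KAPA library of line 2 it was 0.0637 for ANXA2 (edgeR). The fitted TIMP1 change moved to -3.97 without the KAPA library of line 2. S100A4 passed when the SMARTer library of line 1 was left out (adjusted p = 0.0358, edgeR). Without the kit term the adjusted p was 0.312 for S100A11, 0.542 for ANXA2, 0.0890 for LGALS1 and 0.0548 for TIMP1. CAV1 passed without each library in turn, with changes between -3.39 and -2.83.

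The ARID1A+/- line is a single KAPA library that played no part in the choice of the genes, and its test assumes that it varies like the other groups. None of the 5 tested genes was called higher and 1, S100A11, was called lower, where 3.3% of all tested genes passed, 1.15% as higher and 2.15% as lower. At an unadjusted p under 0.05 (edgeR), 2 of the 5 were higher and 1 lower, where 2363 of all 14711 tested genes passed in either direction. The DESeq2 test called 1 higher and 1 lower, where it called 855 genes in all. S100A11 had no read in the ARID1A+/- library and 157 in the KAPA control library, or at least 68.0-fold lower with 3 reads as the floor (adjusted p = 0.00555, edgeR; 0.270 without the kit term). LGALS1 was 2.26 ± 0.46 higher on the log2 scale and missed the threshold (adjusted p = 0.0547, edgeR). It passed when any 1 null library was left out, with adjusted p between 0.00202 and 0.0104, and not when a control library was.

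TIMP1 differed by 1.06 ± 0.55 on the log2 scale between ARID1A+/- and control cells (adjusted p = 0.421, edgeR; 0.0483 without the SMARTer library of line 2). ANXA2 differed by 1.28 ± 0.38 (adjusted p = 0.159, edgeR) and S100A4 by -0.17 ± 0.23 (adjusted p = 0.788, edgeR). CAV1, without the filter, was 1.77 ± 0.39 higher (adjusted p = 0.0356, edgeR), where 3.78% of 22782 genes passed, 1.49% as higher and 2.3% as lower. The ARID1A+/- library held 405 CAV1 reads and the KAPA control library 89, a ratio of 3.50 at equal depth (95% exact binomial interval 2.78 to 4.46). The CAV1 call was lost without the SMARTer control library (adjusted p = 0.106, edgeR) and without the KAPA control library (adjusted p = 0.466), where the KAPA term comes from the null lines alone. It was also lost without the kit term (adjusted p = 0.190). CAV1 therefore stood on opposite sides of control in the ARID1A+/- and null lines, and this difference itself was not tested.

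Between the kits 2 of the 5 tested genes differed, in opposite directions. Over all genes 13.3% passed, 7.99% as higher and 5.3% as lower in SMARTer libraries. Whether a line's SMARTer and KAPA libraries stem from separate cultures is not given, so kit and culture or batch cannot be told apart. S100A11 was lower in SMARTer than in KAPA libraries by -2.14 ± 0.25 on the log2 scale (adjusted p = 0.0122, edgeR), with the SMARTer value lower in 3 of 3 groups. ANXA2 was higher in SMARTer libraries by 1.86 ± 0.27 (adjusted p = 0.0180, edgeR), again in 3 of 3 groups. Without the SMARTer control library the adjusted p was 0.108 for S100A11 and 0.0946 for ANXA2, and without the KAPA control library it was 0.0915 and 0.0750. For ANXA2 it was also above the threshold without the SMARTer library of line 2 (0.0509) and without its KAPA library (0.0571). S100A4 differed by 0.50 ± 0.14 (adjusted p = 0.0618, edgeR), and passed without the SMARTer library of line 1 (0.0217) or its KAPA library (0.0175). LGALS1 differed by 0.06 ± 0.30 (adjusted p = 0.907, edgeR) and TIMP1 by 0.27 ± 0.42 (adjusted p = 0.691, edgeR), with signs that changed between settings. Levels of S100A11 and ANXA2 are therefore comparable between groups only within a kit.

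Within their families, the members took unequal shares of the summed RPKM. S100A4 made up 73.4% and 56.7% of the summed RPKM of 19 S100 genes in line 1, 89.9% and 87.9% in line 2, 88.3% in ARID1A+/- cells, and 75.4% and 64.4% in control cells. S100A11 made up 10.1% and 35.7% in line 1, 0.0683% and 0.725% in line 2, 0% in ARID1A+/- cells, and 4.29% and 26.3% in control cells. S100A4 was thus the main S100 mRNA in all 7 libraries, and S100A11 took its largest shares in the KAPA libraries of line 1 and control cells. ANXA1 and ANXA2 together made up between 0.190% and 3.02% of the summed RPKM of 12 annexins, so neither was a main annexin of these cells. ANXA5, an annexin that binds exposed phosphatidylserine, stood far above them, at 52.5 and 64.5 RPKM in line 1, 31.1 and 42.6 RPKM in line 2, 50.9 RPKM in ARID1A+/- cells, and 38.1 and 46.2 RPKM in control cells.

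**Figure D3:**
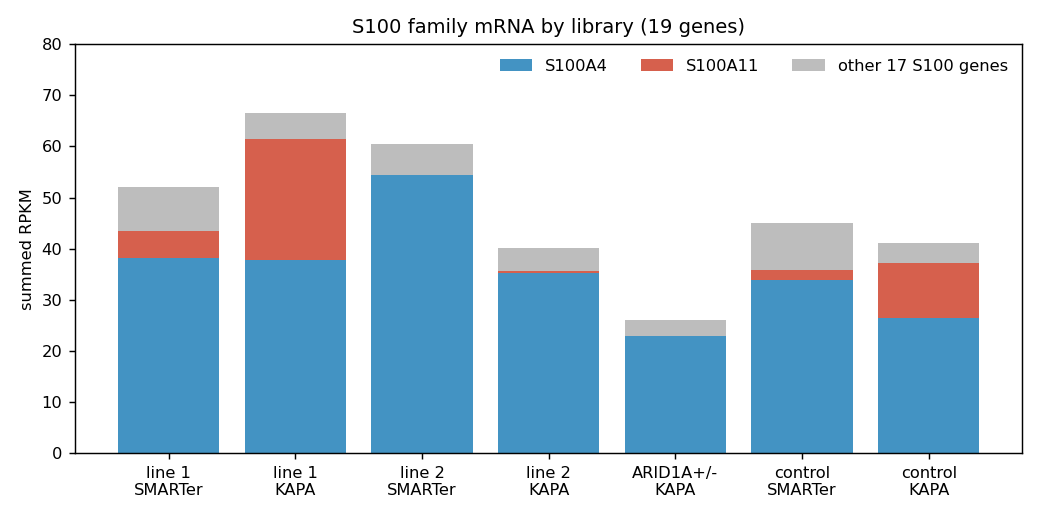
Summed RPKM of 19 S100 genes in each library (vertical axis), split into S100A4, S100A11 and the other 17 genes, with ARID1A-/- line 1, ARID1A-/- line 2, ARID1A+/- and control cells from left to right. S100A4 takes the largest part in every library, from 56.7% to 89.9%, and S100A11 is visible in line 1 and control cells.

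Other genes of the same families and pathways were compared between both null lines and control, from lists written with earlier results of these data known. Over all tested genes 14.2% were called, 4.64% as higher and 9.57% as lower. Among 15 other S100 genes 4 were tested, with 0 higher, 1 lower and a median log2 fold change of -0.08, against 0.02 over all tested genes. The 1 was S100A2, at 1.05 and 0.555 RPKM in line 1, 0.791 and 0.252 RPKM in line 2, and 1.98 and 1.19 RPKM in control cells, a change of -1.33 ± 0.30 (adjusted p = 0.0318, edgeR). Among 10 other annexins 5 were tested, with 0 higher, 1 lower and a median of 0.12. ANXA11, which links RNA granules to lysosomes, changed by -1.71 ± 0.16 (adjusted p = 0.00118, edgeR), with 3.23 and 2.16 RPKM in line 1, 0.633 and 0.360 RPKM in line 2, and 4.69 and 2.84 RPKM in control cells. Among 9 galectins and galectin-binding genes 2 were tested, with 0 higher, 1 lower and a median of -0.59. LGALS3BP, a secreted galectin-3 ligand, changed by -0.98 ± 0.11 (adjusted p = 0.00241, edgeR) and did not follow LGALS1, since it was below control in 2 of 2 lines within each kit.

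TIMP1 inhibits metalloproteinases, and a list of 20 other TIMP and metalloproteinase genes was examined next to it. Of these 10 were tested, with 0 higher, 1 lower and a median of 0.09, beside the 14.2% called over all tested genes. MMP15, a membrane-type metalloproteinase, changed by -0.71 ± 0.16 on the log2 scale (adjusted p = 0.0304, edgeR). Its change against control was -0.30 ± 0.18 in line 1 and -1.12 ± 0.19 in line 2. MMP2, a secreted gelatinase, was named after its values were seen. It stood at 47.4 and 57.6 RPKM in line 1, 15.5 and 13.3 RPKM in line 2, 74.2 RPKM in ARID1A+/- cells, and 23.1 and 26.4 RPKM in control cells. Line 1 was above and line 2 below control in both kits, as for TIMP1, and the ARID1A+/- library was the highest. The mean of both lines differed from control by 0.14 ± 0.12 (adjusted p = 0.492, edgeR).

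Genes of the hyaluronan and CD44 pathway were mostly well above the level of CD44 itself. Of 16 genes 14 were tested, with 2 higher, 1 lower and a median of 0.17, beside the 14.2% called over all tested genes. HAS2, which makes hyaluronan, stood at 4.82 and 13.2 RPKM in line 1, 4.56 and 7.57 RPKM in line 2, 0.231 RPKM in ARID1A+/- cells, and 0.203 and 0.575 RPKM in control cells. It rose by 4.30 ± 0.24 on the log2 scale (adjusted p = 0.000207, edgeR), and no null library overlapped a control library. VCAN, which encodes the hyaluronan-binding proteoglycan versican, rose by 0.67 ± 0.13 (adjusted p = 0.0203, edgeR), which rests mostly on line 1. Its change against control was 1.14 ± 0.15 in line 1 and 0.20 ± 0.15 in line 2. RDX, which encodes radixin, a linker of CD44 to actin, changed by -1.36 ± 0.14 (adjusted p = 0.00179, edgeR).

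Among 12 binding partners and plasminogen genes 6 were tested, with 2 higher, 0 lower and a median of 0.38. The share called over all tested genes was 14.2%. AHNAK, the giant scaffold that binds the annexin A2 and S100A10 complex, stood at 48.0 and 40.9 RPKM in line 1, 12.6 and 21.4 RPKM in line 2, 0.757 RPKM in ARID1A+/- cells, and 5.23 and 3.85 RPKM in control cells. It rose by 2.58 ± 0.29 (adjusted p = 0.00235, edgeR), and every null library was above every control library. MYH9, the non-muscle myosin heavy chain that S100A4 binds, rose by 0.68 ± 0.12 (adjusted p = 0.0143, edgeR), with 24.9 and 26.8 RPKM in line 1, 20.4 and 26.8 RPKM in line 2, and 13.2 and 17.5 RPKM in control cells.

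Several of these smaller calls also needed both control libraries. Without the SMARTer control library the adjusted p was 0.187 for S100A2, 0.0509 for ANXA11, 0.234 for MMP15, 0.115 for VCAN, 0.187 for MYH9, 0.176 for PACSIN3 and 0.0544 for RDX (edgeR). Without the KAPA control library it was 0.206 for S100A2, 0.192 for MMP15, 0.189 for VCAN, 0.0874 for MYH9 and 0.126 for PACSIN3, which is described next. Without the KAPA library of line 2 it was 0.0887 for S100A2, 0.0670 for VCAN and 0.0572 for MYH9, and without the SMARTer library of line 2 it was 0.0515 for MMP15. HAS2, AHNAK, CAV2 and LGALS3BP passed without each library in turn. Without the kit term the adjusted p was 0.322 for S100A2, 0.0668 for ANXA11, 0.0717 for LGALS3BP, 0.317 for MMP15, 0.491 for VCAN and 0.0755 for MYH9 (edgeR).

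**Figure D4:**
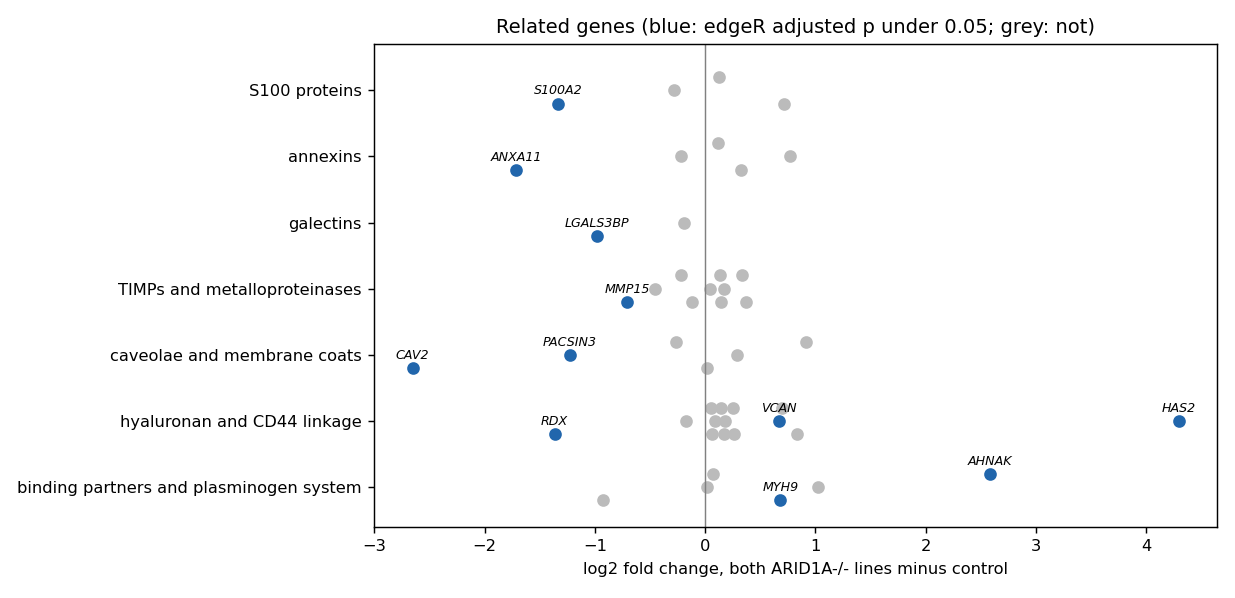
Fitted log2 fold change, both ARID1A-/- lines minus control (horizontal axis), of the tested genes in 7 lists (rows); each point is 1 gene, blue with its name where the edgeR adjusted p was under 0.05 and grey otherwise, and vertical offsets within a row only separate points. HAS2 and AHNAK lie far to the right and CAV2 far to the left.

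CAV1 was not alone in its region. Of 11 genes of caveolae and membrane coats 6 were tested, with 0 higher, 2 lower and a median of -0.13. The share called over all tested genes was 14.2%. CAV2, the caveolin that assembles with caveolin-1 and the next gene to CAV1 in RefSeq order on chromosome 7, stood at 0.129 and 0.167 RPKM in line 1, 0.336 and 0.381 RPKM in line 2, 2.05 RPKM in ARID1A+/- cells, and 1.80 and 1.08 RPKM in control cells. It fell by 2.65 ± 0.28 on the log2 scale (adjusted p = 0.00206, edgeR), with every null library below every control library. PACSIN3, which encodes a membrane-bending F-BAR protein, fell by 1.23 ± 0.21 (adjusted p = 0.0134, edgeR). MET, the receptor of hepatocyte growth factor on the other side of CAV1, stood at 0.00652 and 0.0127 RPKM in line 1, 0.669 and 0.215 RPKM in line 2, 0.0204 RPKM in ARID1A+/- cells, and 1.51 and 3.20 RPKM in control cells.

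MET fell by 5.18 ± 0.58 on the log2 scale (adjusted p = 0.00239, edgeR), but unlike CAV1 and CAV2 it was also near 0 in the ARID1A+/- library. Its change was -6.45 without the SMARTer control library and -4.08 without the KAPA one. CAPZA2, the gene after MET, encodes a subunit of the actin capping protein. It stood between 9.68 and 19.7 RPKM in all libraries and differed by 0.37 ± 0.12 (adjusted p = 0.0845, edgeR). TES, before CAV2, was under the level tested, at 0.361 and 0.0867 RPKM in line 1, 0.163 and 0.0957 RPKM in line 2, 1.48 RPKM in ARID1A+/- cells, and 0.165 and 0.509 RPKM in control cells. The CAV2 promoter of RefSeq held 43 CpG dinucleotides and 6 matches to the GC box.

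**Figure D5:**
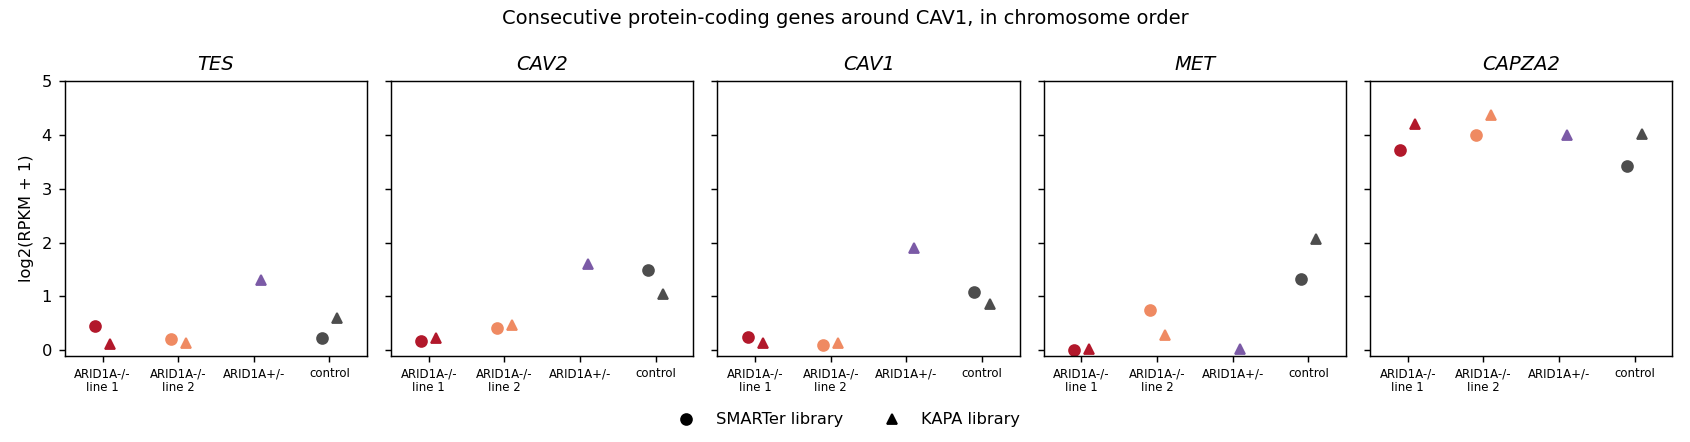
Levels of TES, CAV2, CAV1, MET and CAPZA2, which follow each other on chromosome 7, as log2(RPKM + 1) in ARID1A-/- line 1, ARID1A-/- line 2, ARID1A+/- and control cells; each point is 1 library, circles SMARTer and triangles KAPA. CAV2 and CAV1 are low in both null lines and highest in the ARID1A+/- library, MET is below control in all 3 mutant lines, and CAPZA2 varies little.

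No tested neighbour of LGALS1 or S100A4 was called. PDXP and NOL12, on either side of LGALS1, differed by 0.15 ± 0.13 (adjusted p = 0.483, edgeR) and 0.07 ± 0.14 (adjusted p = 0.798, edgeR). S100A10 lies next to S100A11 and had 2 reads in all, so the level of S100A11 in line 1 was not seen in its neighbour. S100A3, next to S100A4, differed by 0.72 ± 0.35 (adjusted p = 0.232, edgeR). Neighbours of other members were called lower, as were 9.57% of all tested genes. RORB, next to ANXA1, changed by -1.28 ± 0.26 (adjusted p = 0.0232, edgeR). SLC1A2, next to CD44, changed by -0.41 ± 0.10 (adjusted p = 0.0395, edgeR). PDHX on the other side of CD44, THEM4 next to S100A10 and SYN1 were not called (adjusted p = 0.486, 0.121 and 0.156, edgeR).

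The genes whose profile over the 7 libraries lay nearest to a member's, by the root-mean-square distance of centred log2(RPKM + 1), are a description only. For TIMP1 they were EFS at a distance of 0.357, with 11.3 and 9.06 RPKM in line 1, 0.00787 and 0.0333 RPKM in line 2, 16.3 RPKM in ARID1A+/- cells, and 10.6 and 7.25 RPKM in control cells, and LINC00896 at 0.366. For LGALS1 they were LUM, the gene of the matrix proteoglycan lumican, at 0.683 and the entry JA783425 at 0.712. For S100A11 they were C3orf14 at 0.703, which had no read in the ARID1A+/- library either, and MAGEC1 at 0.704. For CAV1 they were GPC1 at 0.127 and SETBP1 at 0.129, for ANXA2 ARHGAP23 at 0.116 and ZYX at 0.182, and for S100A4 LOC100270804 at 0.0741 and USP27X at 0.0835. These distances were taken among 13344 genes with a mean of at least 1 RPKM.

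The summed level of fibroblast markers was higher in line 1 than in line 2, as were LGALS1, TIMP1 and S100A11. COL1A1 made up most of that sum in line 1 and control cells, but not in line 2 or ARID1A+/- cells. The summed RPKM of 8 fibroblast markers ranged from 224 to 246 in line 1, from 61.9 to 65.3 in line 2, was 111 in ARID1A+/- cells, and did not exceed 101 in control cells. COL1A1 stood at 156 and 171 RPKM in line 1, 30.3 and 19.9 RPKM in line 2, 17.1 RPKM in ARID1A+/- cells, and 60.2 and 62.6 RPKM in control cells. Of the 8 markers, 6 were higher in line 1 than in line 2 within both kits. DCN was not: it stood at 4.44 and 2.21 RPKM in line 1, 4.02 and 3.74 RPKM in line 2, 1.75 RPKM in ARID1A+/- cells, and 0.301 and 0.0326 RPKM in control cells. COL1A2, the other chain of type I collagen that fibroblasts make, did not exceed 0.034 RPKM in any library. Fewer cells of a type and less RNA per cell cannot be told apart in bulk libraries, and the part of these markers in the result was not tested. Markers of other types were low: 6 myeloid markers summed to between 3.50 and 5.59 RPKM with 4 of 6 under 1 RPKM everywhere, 5 Schwann cell markers to at most 1.20 RPKM and 4 endothelial markers to at most 0.219 RPKM.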

How the data were processed

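RNA was sequenced as single-end reads, per the labels' protocols. The submitters' processing notes name HISAT2 2.1.0 and hg19, while a counting program, annotation and strand setting are not stated in those sources. For each of 7 libraries the authors deposited whole-number counts per entry, a transcript length and RPKM values computed by the authors, which equal the count divided by length and library total. The counts were tested here with edgeR 4.0.16 in R 4.3.3: TMM scaling, a filter that kept 14711 entries (mean RPKM 0.5 or more over 6 libraries), and terms for group and kit, with 2 residual degrees of freedom. Benjamini-Hochberg adjustment ran over all tested genes, and standard errors are the log2 change over the root of F. The ARID1A+/- comparison used all 7 libraries. The script was tested on simulated data. The kit stood in the model as a block, and in the replicated groups it matched the replicate number. Kit differences correlated at 0.51, 0.63 and 0.45 between pairs of groups. Binomial intervals and floors reflect only counting error.

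The members and lists were chosen with earlier results of these data known. Named genes are the 10 members, the genes of 7 lists with the smallest p, 2 nearest profiles per member with a range of at least 1 on the log2(RPKM + 1) scale, and ARID1A; neighbours, MMP2 and the cell markers were added. Alternatives were DESeq2 1.42.0 size factors and test, limma 3.58.1 on log2(RPKM + 1) and log2(RPKM + 0.1), no kit term, no filter, and each library left out. CAV1 was fitted without the filter in all of these, a choice made after seeing the data. Promoters and gene order came from RefSeq (GRCh38.p14), used for names, order and sequence and never joined to hg19 coordinates.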

Additional observations from a re-analysis of the deposited data

Results flagged for a closer look

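Of the 5 tested members and 47 tested genes of the lists, 2 members and 11 list genes had the null lines on opposite sides of control in both kits. The same held for COL1A1 and EFS, whose values are printed above. This difference was not tested, because the genes were chosen for it or named with it in view. How many of all tested genes had this pattern was not counted, so these counts only describe the named genes. Line 1 minus line 2 was 6.49 on the log2 scale for S100A11 and 6.63 for TIMP1. Among the list genes that were higher in line 1 than in control cells, it was 3.48 for EHD2, which encodes an ATPase at the neck of caveolae, 2.77 for SPP1 (osteopontin, a CD44 ligand), 1.91 for MMP2, 1.73 for MSN (moesin) and 1.71 for KIAA1199, which encodes a protein of hyaluronan breakdown. It was 1.30 for HMMR, a hyaluronan receptor, 0.72 for ANXA5, 0.54 for CACYBP and 0.50 for LGALS8, which encodes galectin-8. It was -1.40 for MMP17, a membrane-anchored metalloproteinase, and -0.30 for EZR (ezrin), both lower in line 1 and higher in line 2 than in control cells. For COL1A1 it was 2.76 and for EFS 9.09. EHD2 stood at 2.46 and 2.13 RPKM in line 1, 0.185 and 0.241 RPKM in line 2, 0.338 RPKM in ARID1A+/- cells, and 0.416 and 0.308 RPKM in control cells.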

How the results depend on the processing

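For both null lines against control, the 1 member called higher became 0 with limma on log2(RPKM + 0.1) and without the replicate block (the kit term), and ranged from 0 to 2 with 1 library left out. The 3 called lower became 0 without the replicate block and ranged from 0 to 3 with 1 library left out. Over all genes the 2090 calls became 1093 with limma on log2(RPKM + 0.1), 592 without the replicate block and 3147 with no filter, and ranged from 348 to 3570 with 1 library left out. S100A11 was -0.63 with limma on log2(RPKM + 1) (adjusted p = 0.304), and TIMP1 missed the threshold with DESeq2 (adjusted p = 0.0958). CAV1, fitted with no filter throughout, was called in 12 of 12 settings, with adjusted p up to 0.0477, and CAV2, HAS2, AHNAK and MET each in 13 of 13.

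For ARID1A+/- cells against control, the 0 members called higher became 1 with DESeq2 and 1 with no filter, and ranged from 0 to 2 with 1 library left out. The 1 called lower became 0 without the replicate block and stayed at 1 with each library left out. Over all genes the 485 calls became 855 with DESeq2, 295 and 233 with limma at pseudocounts of 1 and 0.1, 70 without the replicate block and 862 with no filter, and ranged from 57 to 1180 with 1 library left out. CAV1 was called in 7 of 12 settings.

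For SMARTer against KAPA, the 1 member called higher became 2 with DESeq2 and 0 with limma on log2(RPKM + 0.1), with a range of 0 to 2 when 1 library was left out, and the 1 called lower became 0 with that limma setting, with a range of 0 to 1. Over all genes the 1954 calls became 0 with limma on log2(RPKM + 0.1), where 5134 genes had an unadjusted p under 0.05 and DESeq2 called 2655, and ranged from 0 to 2888 with 1 library left out. The calls were 0 without either control library, where 3053 (SMARTer left out) and 3103 (KAPA left out) genes had an unadjusted p under 0.05. TIMP1 reversed to -0.46 with DESeq2, -0.22 with limma on log2(RPKM + 0.1) and, with 1 library left out, ranged from -0.027 to 0.56, below 0 (-0.027 and -0.023) without either control library. LGALS1 reversed to -0.12 and -0.16 with limma at pseudocounts of 1 and 0.1 and, with 1 library left out, ranged from -0.21 to 0.51, below 0 without any 1 library of line 1 or control. The causes were not tested. A group reduced to 1 library is assumed to vary like the others, and such fits had 1 residual degree of freedom. At the depth reached, S100A6, S100A10 and ANXA1 had too few reads for a ratio, and CD44 allowed one only within the SMARTer libraries.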
